A study of Canis lupus familiaris with 18 samples.

Results

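The 5 tumors with the most and the 5 tumors with the least neuronal messenger RNA were compared among 16 canine high grade oligodendrogliomas (HGO), so that 10 of 16 tumors entered the comparison. The tumors were selected on measured values. SNAP25, SYT1, RBFOX3, NEFL and SLC17A7, which are markers of mature neurons, were scaled over the 16 tumors, and the neuron score of a tumor was the mean of the 5 z-scores of log2 CPM (counts scaled to the same library size). The 5 highest scores are called neuron-rich and the 5 lowest neuron-poor. Each library was made from bulk, surgically resected, formalin-fixed and paraffin-embedded prosencephalic HGO of 1 French bulldog, boxer or Boston terrier, with a stranded total RNA kit that removes ribosomal RNA. No treatment, dose or time point separated the groups, and every sample was tumor tissue without a normal brain control. Of the 18 libraries of the series, those of French bulldogs 2 and 8 were summed to 1 tumor because their labels share a case number, and that of French bulldog 6 was not ranked. The paper describes this last dog as an outlier in its clustering of samples.

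Neurons carry signals along axons and pass them on at synapses, where vesicles filled with glutamate or GABA fuse with the membrane and the transmitter opens receptors on the next cell. Oligodendrogliomas are built from cells that resemble oligodendrocyte precursors, and they grow into cortex and white matter, so that a resected block can hold neurons, axons and normal glia between the tumor cells. Precursor cells of this lineage also transcribe some genes of the synapse themselves, among them subunits of AMPA-type glutamate receptors. In bulk tissue, fewer neurons and less RNA per neuron cannot be told apart.

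Single tumors are given below in the order of their score. The neuron-rich tumors were French bulldogs 9 (score 1.35) and 7 (1.27), boxer 4 (1.06), Boston terrier 6 (0.910) and French bulldog 10 (0.80). The neuron-poor tumors were French bulldogs 5 (score -0.701), 1 (-1.15) and 11 (-1.17), the sum of French bulldogs 2 and 8 (-1.21) and Boston terrier 7 (-1.47). Just outside the neuron-rich group lay French bulldog 4 with a score of 0.450, and just outside the neuron-poor group lay Boston terrier 2 with -0.360. Boxer 3 (0.258), French bulldog 3 (0.166), boxer 1 (-0.0790) and boxer 5 (-0.136) completed the 6 tumors between the groups. The scores fell without a clear step, and the mean was 1.08 ± 0.233 (SD, n = 5) in the neuron-rich and -1.14 ± 0.276 (SD, n = 5) in the neuron-poor tumors.

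The 5 genes that chose the tumors are given as a description, without a test. SNAP25, a membrane fusion protein of the synaptic terminal, was at 433.7, 409.6, 359.8, 247.6 and 234.8 CPM in the neuron-rich tumors and at 29.1, 13.18, 7.78, 12.3 and 4.75 CPM in the neuron-poor tumors. SLC17A7, the vesicular glutamate transporter of cortical excitatory neurons, was at 227, 154.8, 151.2, 113.7 and 96.2 CPM against 6.91, 4.76, 1.11, 7.41 and 0.259 CPM, where the last value was 3 counts. SYT1, the calcium sensor of vesicle release, ranged from 219.2 to 352.3 CPM against 28.9 to 74.2 CPM. All 3 genes were thus present in every neuron-poor tumor, at a lower level. NEFL, a subunit of the axonal neurofilament, was at 65.5 to 147.6 CPM against 0.432 to 4.17 CPM, and RBFOX3, which encodes the nuclear antigen NeuN, at 13.5 to 32.7 CPM against 2.14 to 11.01 CPM. RBFOX3 left the narrowest gap, with French bulldog 11 at 11.01 CPM and French bulldog 10 at 13.5 CPM.

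**Figure D1:**
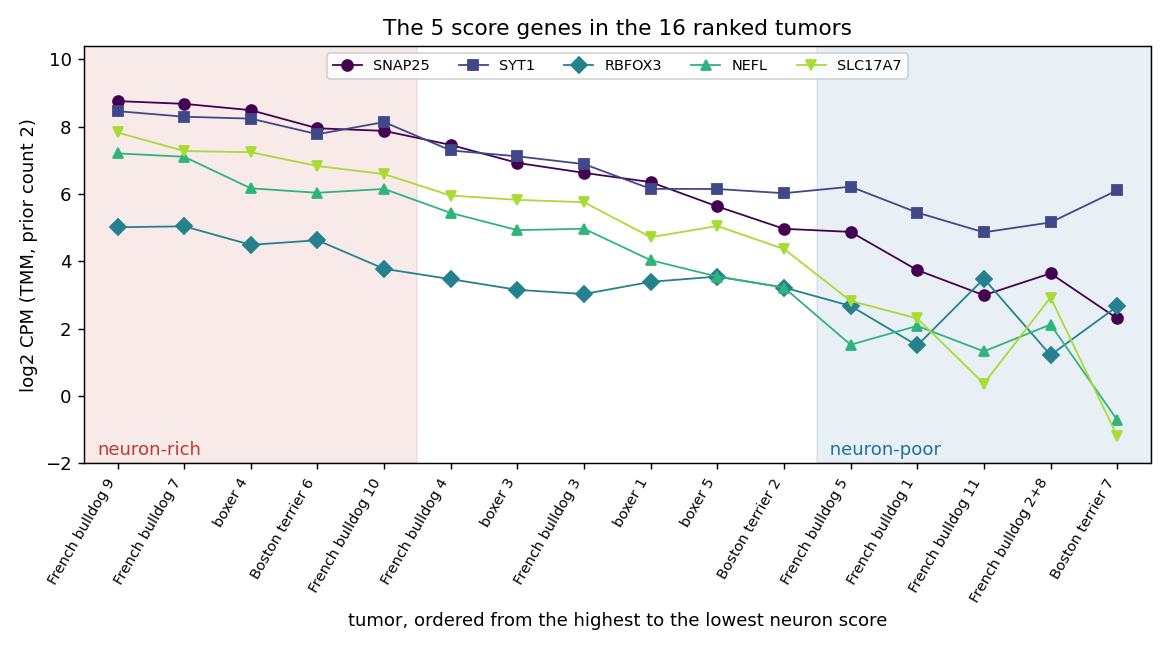
Level of the 5 score genes as log2 CPM (vertical axis) in the 16 tumors, ordered along the horizontal axis from the highest to the lowest neuron score, with the neuron-rich tumors shaded red and the neuron-poor tumors shaded blue. SNAP25 goes from 433.7 CPM in French bulldog 9 to 4.75 CPM in Boston terrier 7, while SYT1 stays at 28.9 CPM or more in every tumor.

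The groups were alike in breed and in depth as far as 5 tumors a side can show. French bulldogs made up 3 of the neuron-rich, 4 of the neuron-poor and 2 of the 6 other tumors (Fisher's exact test of French bulldogs in the 2 groups of 5, p = 1). Counts on genes were 9.05 to 12.6 M per neuron-rich and 8.21 to 17.9 M per neuron-poor tumor, and 3 counts, the smallest level taken as shown, corresponded to 0.165 to 0.351 CPM. These totals, the share of small RNAs (3.91% against 3.72%), the share of the most abundant gene (23.8% against 24.8%) and the number of genes detected (21673 against 21501) gave p = 0.389 to 0.794 in exact permutation tests, two-sided, where 0.00794 is the smallest p that 5 against 5 can give, and each was 0.794 after Benjamini-Hochberg adjustment over the 4 measures. Single tumors stood apart in gene groups described below: French bulldog 9 in myelin genes and French bulldog 11 in immediate early genes. In the mitosis sum, French bulldog 11 was the lowest of the neuron-poor tumors and French bulldog 4 the highest of the 6 tumors between the groups.

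Of the 16424 genes tested, 937 (5.71%) were called higher and 112 (0.682%) lower in the neuron-rich tumors, where a call is an adjusted p under 0.05 in edgeR's quasi-likelihood test. Without French bulldog 9 the calls were 686 higher and 39 lower, and without French bulldog 11 they were 1095 and 249. The lower calls came to 24 without boxer 4, 36 without Boston terrier 6, 56 without French bulldog 1 and 62 without French bulldog 5, so that number rests on single tumors. French bulldogs alone, 3 against 4 tumors, gave 450 higher and 4 lower calls. The median log2 fold change of all genes was -0.08, and 43.9% of them were above 0. Genes of neurons come from the cells that set the score, so their direction follows from the choice of the tumors. Their calls are a description and no p-value is given for them; an adjusted p stands only beside a gene that did not pass or a call that was lost. The 10 lists of neuronal genes held 148 names, of which 126 were listed by symbol and 121 tested, and 65 of these 121 were called higher and none lower. In 13 lists of other cell types and processes, 2 of the 142 genes tested were called higher and 1 lower.

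**Figure D2:**
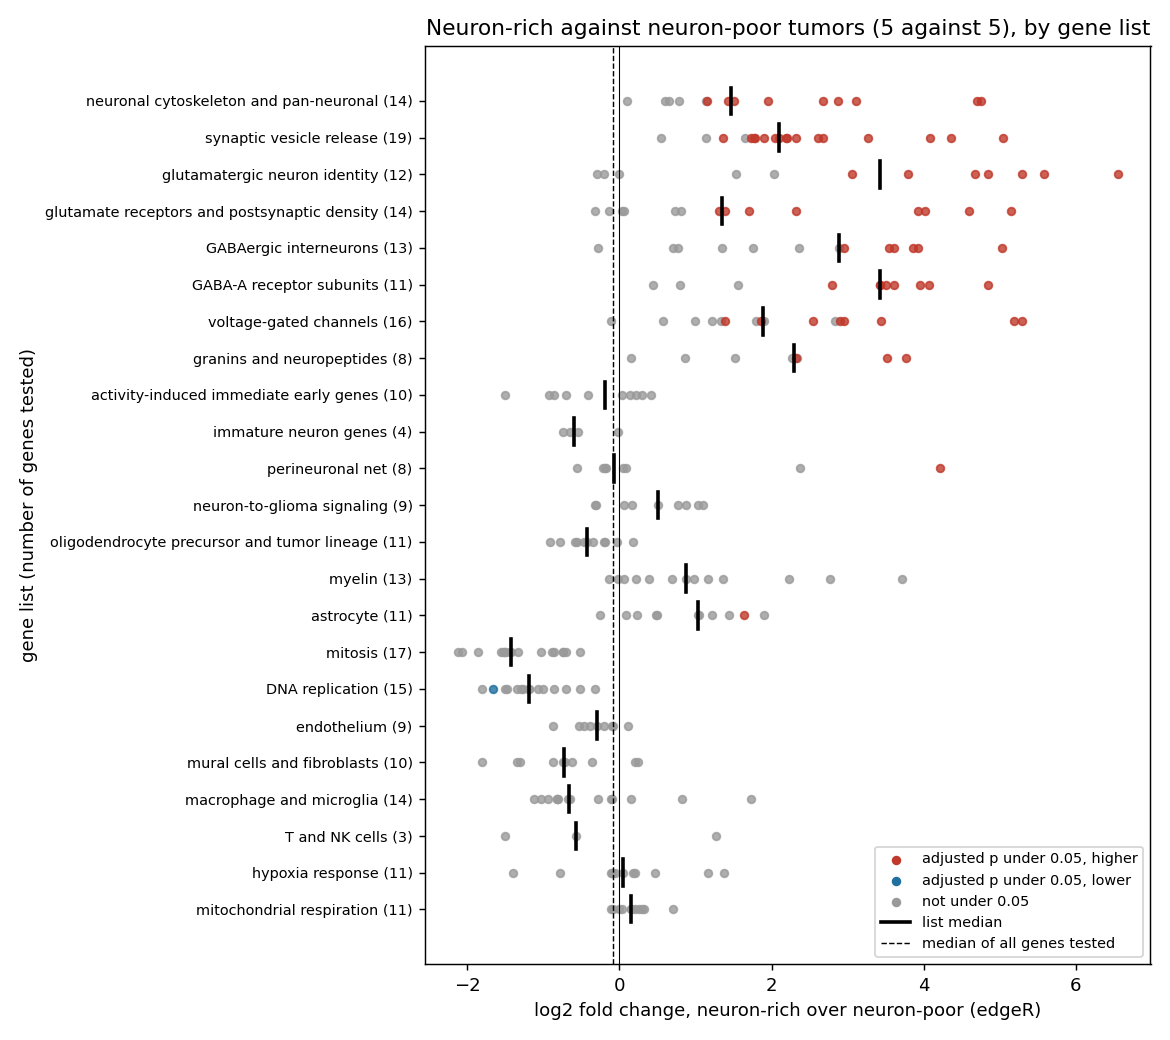
Log2 fold change of each gene tested (points, horizontal axis) in the 23 gene lists (vertical axis, with the number of genes tested), 5 neuron-rich against 5 neuron-poor tumors, with list medians as bars. Lists of synaptic genes lie to the right of the median of all genes at -0.08, with 16 of 19 vesicle genes called higher, while mitosis and DNA replication genes lie to its left with 1 call among 32 genes.

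Of the 19 genes of vesicle release tested, 16 were called higher in the neuron-rich tumors. All 19 log2 fold changes were positive, with a median of 2.10 against -0.08 for all genes. SV2A, SNCB and RIMS1 did not pass, with edgeR adjusted p of 0.416, 0.134 and 0.139. Their summed level was 2188 to 3406 CPM in the neuron-rich, 1070 to 1840 CPM in the other 6 and 562 to 930.4 CPM in the neuron-poor tumors, so that the 3 groups did not overlap. SYN1, which tethers vesicles to the cytoskeleton, was at 150.0, 135.0, 134.0, 107.3 and 93.3 CPM against 10.7, 6.003, 5.15, 7.58 and 7.52 CPM. It came first by p among all genes outside the score, with a log2 fold change of 4.08 (SE 0.25) and means of 124 ± 23.0 against 7.38 ± 2.1 CPM (SD, n = 5 each). SV2B, a vesicle membrane protein, was at 247.5, 129.5, 166.8, 118.6 and 156.1 CPM against 10.53, 7.80, 5.86, 9.61 and 6.22 CPM. SYT4, a relative of SYT1, had a log2 fold change of 5.05 (SE 0.65). SYP and VAMP2, abundant proteins of the vesicle membrane, had log2 fold changes of 2.32 (SE 0.20) and 1.72 (SE 0.17), and the neuron-poor level of VAMP2, 44.9 to 59.3 CPM, stayed well above the limit of detection. With French bulldog 6 added before ranking, the call of SYP was lost (adjusted p = 0.111).

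Genes of the neuronal cytoskeleton ranged from large to small differences. The 14 genes tested had a median log2 fold change of 1.47, and 9 were called higher. NEFM and INA, further subunits of the neurofilament, had log2 fold changes of 4.70 (SE 0.60) and 4.75 (SE 0.65), and THY1, a surface protein of projection neurons, of 3.10 (SE 0.29). STMN2, a regulator of microtubules in growing axons, was at 116.5, 69.5, 91.2, 51.5 and 73.2 CPM against 14.9, 27.9, 9.90, 8.62 and 2.33 CPM, without overlap, and its call was lost with French bulldog 6 added (edgeR adjusted p = 0.105). MAP2, the microtubule protein of dendrites, was at 850.6, 805.5, 1129, 706.3 and 825.3 CPM against 482.9, 400.4, 329.1, 1092 and 573.4 CPM. The groups overlapped in MAP2 because the sum of French bulldogs 2 and 8 reached 1092 CPM, and the log2 fold change was 0.60 (SE 0.32, edgeR adjusted p = 0.315). Without that tumor MAP2 was called, with a log2 fold change of 0.98. A gene often used to stain neurons was thus abundant in every neuron-poor HGO.

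**Figure D3:**
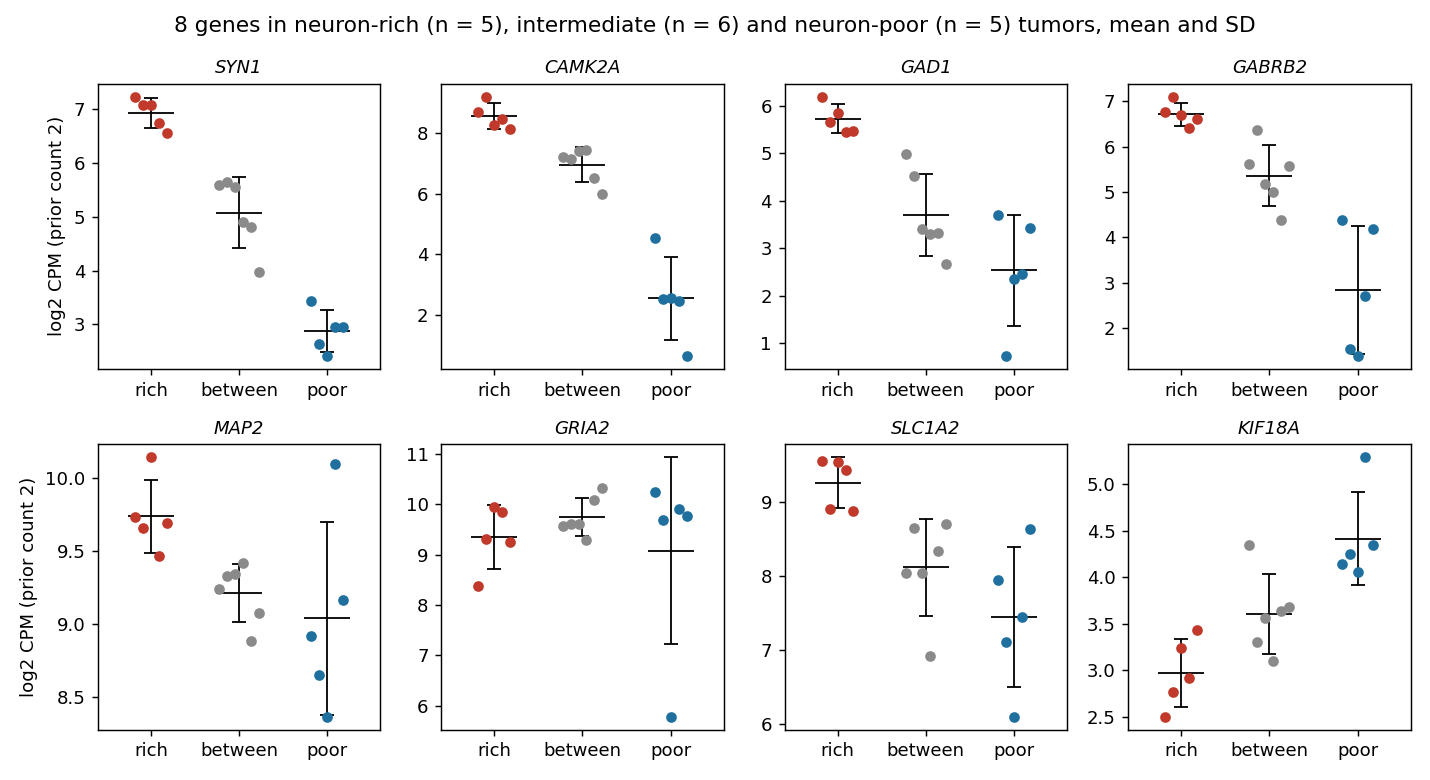
Level of 8 genes as log2 CPM (vertical axes) in the 5 neuron-rich, 6 intermediate and 5 neuron-poor tumors, each point a tumor, with the mean and SD of each group. The neuron-rich and neuron-poor tumors are apart in SYN1, CAMK2A, GAD1, GABRB2 and SLC1A2, overlap in MAP2 and GRIA2, and lie in the opposite order in KIF18A, at 5.49 to 10.6 CPM in the neuron-rich and 16.5 to 38.9 CPM in the neuron-poor tumors.

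Genes of cortical glutamatergic neurons had the widest spread of differences. The median log2 fold change was 3.42 over 12 genes tested, 7 of which were called higher. CAMK2A, the kinase of the postsynaptic density of excitatory neurons, was at 416.6, 587.1, 307.8, 354.3 and 279.6 CPM against 22.9, 5.61, 5.66, 5.33 and 1.38 CPM, a log2 fold change of 5.58 (SE 0.67), and it was not called for 8 against 8 tumors (edgeR adjusted p = 0.0676). TBR1, a transcription factor of deep cortical layers, was at 23.2, 25.9, 23.2, 11.2 and 13.23 CPM against 0.702, 0.858, 0.404, 0.988 and 0.346 CPM. In the 6 other tumors TBR1 was at 3.27 to 9.89 CPM, between the groups. NEUROD6 and NEUROD2, transcription factors of pyramidal neurons, were at 8.62 to 25.0 and 3.01 to 14.5 CPM in the neuron-rich tumors, and no neuron-poor tumor had more than 6 counts of NEUROD6 or 8 of NEUROD2. NEUROD2 was not called for 8 against 8 tumors either (adjusted p = 0.0756). SLC17A6, the glutamate transporter of thalamic and other subcortical neurons, was below the filter on low counts. It was at 0.889, 0.456, 0.756, 0.748 and 8.42 CPM in the neuron-rich and at most 1.32 CPM in the neuron-poor tumors. Of the neuron-rich tumors, only French bulldog 10 lay above the neuron-poor range, and the 6 other tumors reached up to 11.3 CPM.

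Among glutamate receptors, the 3 NMDA-type subunits tested were called higher, and of the 4 AMPA-type subunits only GRIA1 was. Whether the subunits differed from each other was not tested. The list of 14 receptor and postsynaptic genes had a median log2 fold change of 1.35 with 8 called higher, and its summed levels overlapped, at 1600 to 2536 against 466.8 to 2284 CPM. GRIN1, the subunit that every NMDA receptor contains, was at 107.9, 122.2, 103.0, 89.3 and 47.4 CPM against 3.74, 1.87, 3.13, 4.28 and 0.173 CPM. Its log2 fold change was 5.15 (SE 0.60), and that of GRIN2A, another NMDA subunit, was 4.01 (SE 0.52). GRIA2, the AMPA subunit that makes the channel impermeable to calcium, was at 333.0, 638.0, 994.7, 923.9 and 610.9 CPM against 1220, 823.2, 54.8, 959.7 and 873.7 CPM. Its log2 fold change was -0.14 (SE 0.59, edgeR adjusted p = 0.921) and -0.46 (adjusted p = 0.407) without French bulldog 11, the tumor at 54.8 CPM. GRIA1 was at 136.5, 140.8, 115.0, 142.9 and 167.5 CPM against 76.7, 75.7, 16.3, 43.8 and 60.8 CPM, without overlap and with a log2 fold change of 1.39 (SE 0.35). The call of GRIA1 was lost, with adjusted p of up to 0.0713, when any 1 of French bulldogs 7, 9 or 10, the sum of French bulldogs 2 and 8, boxer 4 or Boston terriers 6 or 7 was left out, with breed as a covariate (0.0553), in French bulldogs alone (0.184), for 8 against 8 (0.283) and 3 against 3 tumors (0.102) and with French bulldog 6 added (0.243).

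Of 13 genes of GABAergic interneurons tested, 6 were called higher. The score held no gene specific to these cells, but it held markers of mature neurons in general. The direction of interneuron genes thus also follows from the choice of the tumors. The sign was positive in 12 of the 13, with a median log2 fold change of 2.89 and a summed level of 164.1 to 336.7 against 26.4 to 64.5 CPM. GAD1, which makes GABA from glutamate, was at 73.0, 50.4, 57.5, 43.5 and 44.3 CPM against 12.9, 1.48, 4.95, 5.33 and 10.54 CPM, a log2 fold change of 2.95 (SE 0.47). SST, the neuropeptide of the somatostatin class of interneurons, was at 20.1, 5.38, 24.4, 5.65 and 13.3 CPM against 0.468, 0.780, 0.101, 0.659 and 0 CPM. The level of SST was uneven among the neuron-rich tumors too, and it was lowest there in French bulldog 7, the tumor with the second highest score. KCNC2, a potassium channel of fast-firing interneurons, had a log2 fold change of 3.86 (SE 0.32). NPY, a neuropeptide, was at 4.01 to 10.6 CPM, and no neuron-poor tumor had more than 12 counts of it. Its call was lost in French bulldogs alone (edgeR adjusted p = 0.0983) and for 3 against 3 tumors (0.0653).

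Subunits of the GABA-A receptor, the chloride channel that GABA opens, had a median log2 fold change of 3.43 over 11 genes, all of them higher and 8 called. Their summed level was 547.8 to 738.3 CPM in the neuron-rich and 36.9 to 356.3 CPM in the neuron-poor tumors. GABRB2, a subunit of many GABA-A receptors, was at 108.0, 137.2, 103.6, 84.6 and 98.0 CPM against 20.5, 2.73, 2.42, 6.31 and 18.1 CPM, without overlap, and its log2 fold change was 3.43 (SE 0.58). GABRD, the subunit of receptors outside the synapse, was at 16.7, 24.1, 8.03, 9.72 and 5.41 CPM, and no neuron-poor tumor had more than 7 counts of it.

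Voltage-gated channels and secreted peptides gave calls in part of their genes. Of 16 channel genes tested, 15 were higher and 8 called, with a median log2 fold change of 1.88. SCN2A, a pore-forming sodium channel, was at 168.2, 178.1, 162.0, 113.1 and 136.3 CPM against 80.9, 35.7, 2.12, 41.1 and 44.5 CPM. These values did not overlap, yet SCN2A was not called, with a log2 fold change of 1.90 (SE 0.60, edgeR adjusted p = 0.0937), and French bulldog 11 at 2.12 CPM lay far below the other 4 neuron-poor tumors. Without French bulldog 11 SCN2A was called, with a log2 fold change of 1.59, and it was also called in DESeq2, in limma-voom and with the score as a continuous covariate. SCN1A, another sodium channel, overlapped between the groups, with a log2 fold change of 1.00 (SE 0.40, adjusted p = 0.180). Among granins and neuropeptides, all 8 genes tested were higher and 3 called, with a median of 2.29, and CHGB, a protein of dense-core vesicles, was at 160.3, 151.9, 78.9, 76.5 and 144.0 CPM against 10.2, 7.25, 26.5, 8.67 and 1.38 CPM. The call of CHGB was lost for 3 against 3 tumors (adjusted p = 0.115) and with French bulldog 6 added (0.0644).

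Not every neuronal list followed the score. The immediate early genes, which neurons switch on with activity and which stressed cells of other types also use, had 5 of 10 genes higher, none called and a median log2 fold change of -0.20. FOS was at 16.0, 158.5, 6.33, 54.8 and 54.8 CPM against 23.3, 35.3, 712.1, 19.2 and 41.5 CPM (log2 fold change -1.51, SE 1.11, edgeR adjusted p = 0.479). NPAS4, an immediate early gene that is largely restricted to neurons, was at 5.41, 120.2, 3.78, 25.0 and 2.41 CPM against 0, 0.312, 133.5, 1.04 and 0.605 CPM. French bulldog 11 thus had the highest level of both FOS and NPAS4 although its score was the third lowest, and without it the median of the list was 1.19 and NPAS4 was called higher. The 4 immature neuron genes tested were all lower, none of them called, with a median of -0.60. That median was -0.85 to -0.34 with 1 tumor left out and -0.91 in French bulldogs alone. DCX, a microtubule protein of migrating neuroblasts that tumors of this lineage also transcribe, was at 85.7, 239.0, 173.7, 337.1 and 346.5 CPM against 575.4, 353.2, 124.3, 776.8 and 187.5 CPM, with a log2 fold change of -0.75 (SE 0.52, adjusted p = 0.446).

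Outside the neuronal lists, 872 genes were called higher, and 277 of the 937 had no symbol. The genes with a symbol and the smallest p that no list held were DGKG, HPCA, DDN, DMTN, ZNF365 and NDRG4. HPCA, the calcium sensor hippocalcin of hippocampal and cortical neurons, was at 38.8, 35.6, 22.4, 24.3 and 15.2 CPM against 0.819, 0.234, 0.202, 0.275 and 0.346 CPM. DGKG, a diacylglycerol kinase, was at 74.0, 51.7, 66.7, 54.4 and 46.4 CPM against 6.67, 4.13, 3.03, 3.46 and 3.89 CPM. ZNF365 differed less but with very even levels in the neuron-poor tumors, 36.5 to 39.9 CPM, against 115.7 to 158.8 CPM. No neuron-poor tumor had more than 7 counts of HPCA, so no fold is given for it. Log2 fold changes were 5.25 (SE 0.38) for DDN, the postsynaptic protein dendrin, 4.36 (SE 0.32) for DMTN, an actin-bundling protein, 3.81 (SE 0.27) for DGKG, 2.45 (SE 0.21) for NDRG4 and 1.82 (SE 0.15) for ZNF365. These 5 genes kept their call when any 1 of the 10 tumors was left out, and DDN lost it for 8 against 8 tumors (edgeR adjusted p = 0.0667). The groups stayed as the score had set them, and these genes were picked by smallest p in the same data. Their calls are thus a description, and the direction of neuronal genes among them follows from the choice of the tumors.

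Genes of signaling from neurons to glioma gave no call, with 7 of 9 higher and a median log2 fold change of 0.50, and genes of the perineuronal net gave 1. Glioma cells receive growth signals from neurons, among them shed neuroligin-3 and the neurotrophin BDNF, whose receptor is encoded by NTRK2. NLGN3 (log2 fold change 0.16, SE 0.23, edgeR adjusted p = 0.741) and ADAM10, the protease that sheds it (-0.32, SE 0.23, adjusted p = 0.465), did not pass the test, and no gene of the 9 tested in this list did. NTRK2 was at 291.6, 282.5, 692.0, 319.7 and 319.7 CPM against 244.4, 143.1, 144.5, 135.3 and 281.0 CPM, with a log2 fold change of 1.03 (SE 0.33, adjusted p = 0.0905, and 0.0347 in DESeq2). The nearest tumors of the groups, French bulldog 7 and Boston terrier 7, were within 2 CPM of each other. In the perineuronal net, the matrix around some neurons whose proteoglycans glial and tumor cells also make, 4 of 8 genes were higher and the median was -0.07. The exception was HAPLN4, a link protein that neurons themselves make, at 42.2, 52.4, 31.3, 27.2 and 13.7 CPM against 1.17, 2.105, 0.606, 4.56 and 0.259 CPM, the only gene of the list that was called (log2 fold change 4.21, SE 0.66). ACAN, the main proteoglycan of the net, had a log2 fold change of -0.18 (SE 0.72, adjusted p = 0.919).

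Markers of the tumor lineage were present in both groups. OLIG2, the transcription factor of oligodendrocyte precursors and of these tumors, was at 91.9 to 203.1 CPM in the neuron-rich and 124.9 to 291.3 CPM in the neuron-poor tumors (log2 fold change -0.21, SE 0.28, edgeR adjusted p = 0.722). Of 11 precursor genes, 10 had a negative sign and none was called, with a median of -0.42. PDGFRA, the growth factor receptor of precursor cells, was at 171.3, 895.6, 753.2, 1387 and 1619 CPM against 1855, 283.2, 210.3, 5126 and 1750 CPM. The spread within each group was wider than the difference between them (log2 fold change -0.91, SE 0.81, adjusted p = 0.57).

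Markers of normal glia had positive medians with 1 call, and their part in the calls was not tested. The 13 myelin genes had a median log2 fold change of 0.87 with none called, and without French bulldog 9 the median was -0.16. MBP, the basic protein of compact myelin, was at 4777 CPM in French bulldog 9 and at 359.8 to 707.3 CPM in the other neuron-rich tumors, against 94.2 to 1177 CPM in the neuron-poor tumors (log2 fold change 1.36, SE 0.89, edgeR adjusted p = 0.422). Summed myelin levels were 1175 to 9802 against 545.2 to 3922 CPM. Of 11 astrocyte genes, 10 were higher and 1 was called, with a median of 1.03 and summed levels of 2192 to 7159 against 881.5 to 4695 CPM.

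SLC1A2, the glutamate transporter with which astrocytes clear the synapse, was the astrocyte gene called. It was at 750.7, 478.7, 740.2, 689.2 and 470.9 CPM against 246.6, 137.4, 68.6, 173.7 and 398.2 CPM, without overlap. Means were 626 ± 140 and 205 ± 126 CPM (SD, n = 5 each), with a log2 fold change of 1.63 (SE 0.40, edgeR adjusted p = 0.0311). The call was lost, with adjusted p of up to 0.0829, when any 1 of French bulldogs 1, 5 or 9, the sum of French bulldogs 2 and 8, boxer 4 or Boston terrier 6 was left out, in French bulldogs alone (0.0587), for 8 against 8 (0.0907) and 3 against 3 tumors (0.240) and with French bulldog 6 added (0.256). GFAP and AQP4, the filament protein and the water channel of astrocytes, had log2 fold changes of 0.09 (SE 0.75, adjusted p = 0.963) and 0.48 (SE 0.83, adjusted p = 0.791).

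Genes of cell division were lower in the neuron-rich tumors in sign, but few passed the test. All 17 mitosis genes and all 15 DNA replication genes tested had a negative log2 fold change, with medians of -1.43 and -1.19 against -0.08 for all genes, and MCM3 alone was called. MKI67, the marker of cycling cells, was at 23.4, 35.3, 90.5, 42.9 and 96.8 CPM against 105.9, 206.8, 46.3, 703.7 and 220.0 CPM. French bulldog 11 at 46.3 CPM made the groups overlap, and the log2 fold change was -2.12 (SE 0.67, edgeR adjusted p = 0.0910). Without French bulldog 11, MKI67 (-2.40, adjusted p = 0.0259), TOP2A (-1.80, adjusted p = 0.0335), MCM2 (-1.47, adjusted p = 0.00606), PCNA (-1.47, adjusted p = 0.0299) and RRM2 (-1.80, adjusted p = 0.0463) were each called, while CDK1 was not (-1.61, adjusted p = 0.0664). With all 10 tumors, MKI67 passed in DESeq2 (adjusted p = 0.0105) and PCNA in DESeq2 (0.0276) and limma-voom (0.0471), and with the score as a continuous covariate in 16 tumors MKI67 passed (0.0297). PCNA also passed without French bulldog 10 (0.0248). Without the sum of French bulldogs 2 and 8, the log2 fold change of MKI67 was -1.28 (adjusted p = 0.204), and without French bulldog 9 adjusted p was 0.341 for TOP2A, 0.304 for MCM2 and 0.374 for RRM2.

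MCM3, a subunit of the replicative helicase, was at 15.8, 19.1, 12.4, 11.1 and 21.4 CPM against 33.8, 64.4, 18.9, 102.2 and 36.2 CPM. The log2 fold change was -1.66 (SE 0.41, edgeR adjusted p = 0.0333), with French bulldog 11 again inside the neuron-rich range. The call was lost without any 1 of French bulldogs 1, 7 or 9, the sum of French bulldogs 2 and 8, boxer 4 or Boston terrier 6, with adjusted p of up to 0.0899, with breed as a covariate (0.0508), in limma-voom (0.0524), in French bulldogs alone (0.248), for 8 against 8 (0.200) and 3 against 3 tumors (0.230) and with French bulldog 6 added (0.0560). The summed mitosis level was 145.3, 170.1, 292.8, 169.2 and 432.1 CPM in the neuron-rich tumors against 428.1, 759.8, 168.9, 1525 and 672.2 CPM in the neuron-poor tumors. It ranged from 169.3 to 798.0 CPM in the 6 other tumors, with the top value in French bulldog 4. Tumors with few neuronal transcripts therefore included both the highest and one of the lowest mitosis sums, and all 5 neuron-rich tumors lay at 432.1 CPM or below.

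**Figure D4:**
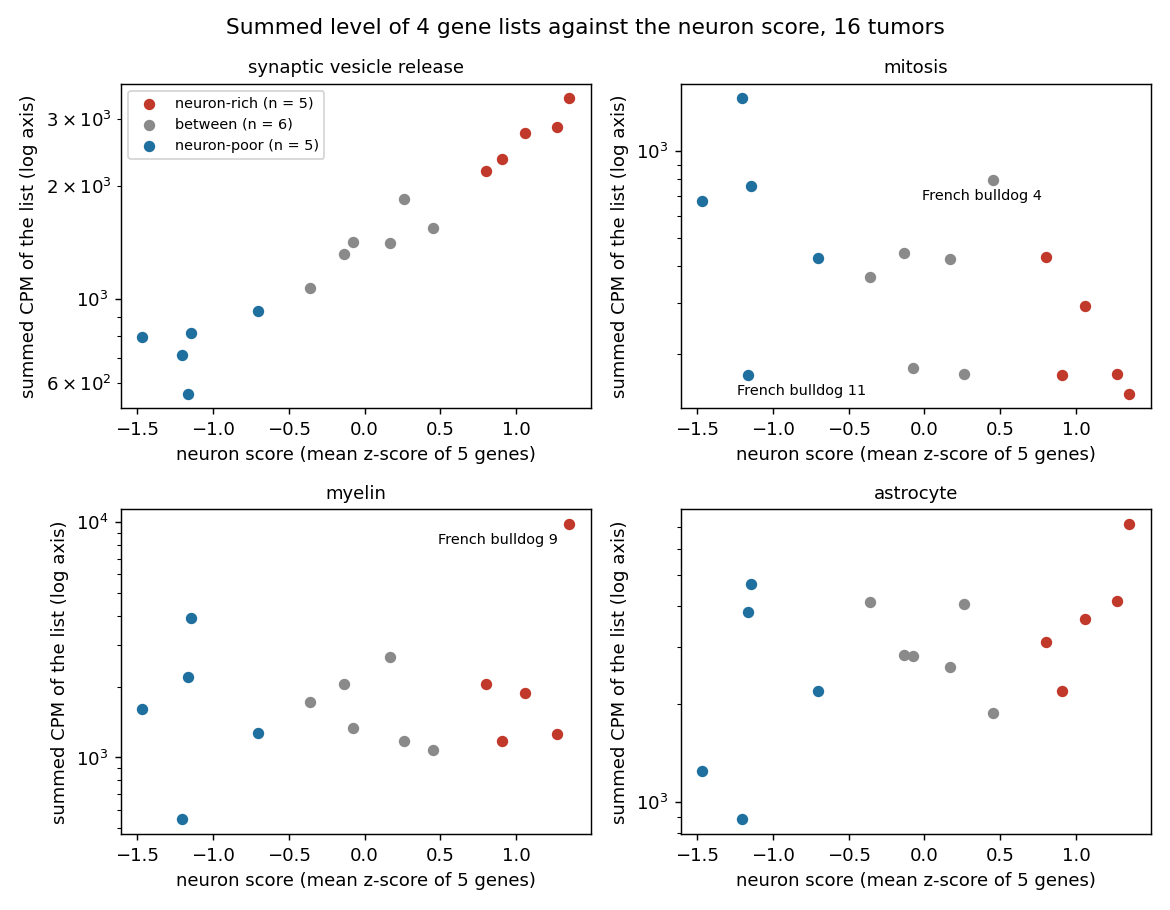
Summed CPM of 4 gene lists (vertical axes, log scale) against the neuron score (horizontal axis) in the 16 tumors. Vesicle genes climb from 562 CPM in French bulldog 11 to 3406 CPM in French bulldog 9; mitosis genes are highest at 1525 CPM in the sum of French bulldogs 2 and 8, with French bulldog 11 (168.9 CPM) and French bulldog 4 (798.0 CPM) off the general course, and French bulldog 9 stands alone in myelin genes at 9802 CPM.

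The genes called lower included genes of dividing cells, and the 10 with a symbol and the smallest p did not all depend on the same tumors. H4C8, a histone H4 gene, was at 3.39, 4.01, 4.16, 4.24 and 4.71 CPM against 9.13, 9.59, 16.9, 11.6 and 13.0 CPM (log2 fold change -1.53, SE 0.26, edgeR adjusted p = 0.00381). KIF18A, a kinesin that aligns chromosomes in mitosis, was at 5.49, 6.66, 9.26, 7.39 and 10.6 CPM against 17.4, 18.8, 16.5, 38.9 and 20.1 CPM (-1.48, SE 0.31, adjusted p = 0.0126). ODC1, the first enzyme of polyamine synthesis, was at 16.3, 28.4, 22.9, 31.5 and 31.3 CPM against 56.6, 65.3, 49.6, 120.0 and 50.6 CPM (-1.37, SE 0.30, adjusted p = 0.0158). In these genes French bulldog 11 lay with the other neuron-poor tumors, unlike in MKI67 and MCM3. H1-5, a linker histone, had a log2 fold change of -2.28 (SE 0.45, adjusted p = 0.00959) and HMGB2, a chromatin protein of proliferating cells, of -1.40 (SE 0.30, adjusted p = 0.0142). The calls of these 5 genes held without each single tumor, with adjusted p of at most 0.0411, and none of them held in French bulldogs alone, 3 against 4 tumors, where adjusted p was 0.0903 for H4C8, 0.148 for H1-5, 0.118 for KIF18A, 0.123 for HMGB2 and 0.104 for ODC1. Under a comparison of the 8 highest with the 8 lowest tumors, ODC1 alone of the 5 was called. For the 3 highest against the 3 lowest, H1-5 (0.0512), KIF18A (0.0782) and ODC1 (0.101) were not called, and H4C8 was not with the score as a continuous covariate (0.0558).

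The other 5 genes were more fragile. NR2C1, a nuclear receptor, had a log2 fold change of -0.90 (SE 0.20, edgeR adjusted p = 0.0178, and 0.0549 without French bulldog 9). MAML2, a coactivator of Notch signaling, was at -0.79 (SE 0.18, adjusted p = 0.0226, and up to 0.0689 without French bulldog 9 or boxer 4). POLR1A, the large subunit of RNA polymerase I, was at -0.80 (SE 0.19, adjusted p = 0.0251, and up to 0.0755 without French bulldog 5, French bulldog 9 or Boston terrier 6). KIF14, a kinesin of cytokinesis, was at -1.90 (SE 0.44, adjusted p = 0.0225, and up to 0.0650 without French bulldog 5, French bulldog 9, boxer 4 or Boston terrier 6), and MED14, a subunit of the Mediator complex, at -0.78 (SE 0.19, adjusted p = 0.0294, up to 0.0734 without French bulldog 7, French bulldog 9, boxer 4 or Boston terrier 6, and 0.0506 with breed as a covariate). All 5 of these calls were lost in French bulldogs alone, with adjusted p of 0.0831 to 0.235, and for 3 against 3 tumors, with 0.143 to 0.265, and NR2C1 alone of the 5 was called for 8 against 8. With French bulldog 6 added, MAML2 (0.174) and KIF14 (0.0686) were not called, and KIF14 was not in limma-voom (0.0556).

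Histone genes and small RNAs made up part of the lower calls. Of 17 histone genes tested, 16 had a negative sign and 4 were called, with a median of -0.97. By symbol, 321 small RNAs such as small nucleolar and spliceosomal RNAs were tested, and 261 had a negative sign, 18 were called lower and 2 higher, with a median of -0.83. Their near-identical copies make the count of a single one uncertain, and their summed share of the counts did not move the same way (3.91% ± 0.344 against 3.72% ± 0.667, SD, n = 5 each). With all small RNAs left out of the fit, 90 of the lower and 927 of the higher calls were kept, where the 18 lower and 2 higher calls that are small RNAs themselves could not be.

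Other cell types and states gave no call. Macrophage and microglia genes had 11 of 14 members with a negative sign and a median of -0.66, with summed levels of 125.0 to 263.5 against 114.4 to 528.1 CPM. That median was -0.33 without French bulldog 1, -0.25 for 8 against 8, -0.06 for 3 against 3 tumors and -3.02 with French bulldog 6 added, so its size rests on the choice of tumors. AIF1 (log2 fold change -0.81, SE 0.46, edgeR adjusted p = 0.348), CSF1R (-0.10, SE 0.46, adjusted p = 0.929) and CD68 (-1.12, SE 0.39, adjusted p = 0.126), all markers of these cells, did not pass the test. Of 12 T and NK cell genes, 7 were below the filter on low counts and 3 were tested. Endothelial genes had a median of -0.30, which was -0.52 to -0.13 with 1 tumor left out and 0.07 for 8 against 8 tumors. Genes of mural cells and fibroblasts had a median of -0.73. It was -0.23 without French bulldog 11, the tumor with the most COL1A1 at 301.8 CPM. Hypoxia genes and genes of mitochondrial respiration had medians of 0.05 and 0.15. Other medians of lists with few or no calls moved as well. For 8 against 8 tumors they were -0.64 for mitosis, -0.66 for DNA replication and 0.20 for neuron-to-glioma signaling. That of myelin genes was 2.20 for 3 against 3. Lists with many calls moved too. Their medians for 8 against 8 were 0.73 for glutamate receptor and postsynaptic genes, 2.04 for GABA-A receptor and 1.84 for interneuron genes.

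The 6 tumors between the groups were not used in the comparison, so the slope of each gene on the score in them shows the direction in samples that made no call. Over all 16169 genes with enough counts there, 48.1% of the slopes were positive. Among the genes called higher, 756 of 915 (82.6%) were positive, and outside the neuronal lists 694 of 850 were. The share of the 915 genes stayed between 66.6% (without Boston terrier 2) and 90.7% (without French bulldog 4) when 1 of the 6 tumors was left out. All 19 vesicle genes had a positive slope, 15 without boxer 3 or Boston terrier 2, as did 10 of 11 GABA-A receptor and 11 of 13 interneuron genes, but only 8 of 14 glutamate receptor and postsynaptic genes. Slopes were positive in 11 of 14 cytoskeletal, 9 of 12 glutamatergic identity, 12 of 16 channel and 7 of 8 granin and peptide genes. They were positive in only 1 of 10 immediate early, 2 of 4 immature neuron, 3 of 8 perineuronal net and 3 of 9 neuron-to-glioma genes, and in 3 of 11 astrocyte and 4 of 13 myelin genes.

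The genes called lower did not keep their direction in the same way. Only 24 of 110 (21.8%) had a negative slope, against 51.9% of all genes, and 15 of 17 mitosis and 14 of 15 replication genes had a positive one. These values rest on French bulldog 4, which had the highest score of the 6 and the highest mitosis sum. Without it, 67 of 109 lower calls (61.5%) had a negative slope, against 50.2% of all genes, and 1 of 17 mitosis and 0 of 15 replication genes had a positive one. In a fit of these 6 tumors alone, no gene passed the adjusted threshold in edgeR, the only tool run on them, and 878 genes had an unadjusted p under 0.05.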

How the data were processed

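RNA of formalin-fixed HGO was sequenced in paired ends (NextSeq per the labels, NovaSeq per the paper). Per the labels and the submitters' processing notes, the authors used Trimmomatic 0.33, FastQC, HISAT2 2.1.0, featureCounts and DESeq2, and they deposited raw counts for 29993 genes, 16324 of them with a symbol. Strand and multi-mapping settings are not given in the sources used here, so overlapping and repeated genes are uncertain.

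Here the libraries of French bulldogs 2 and 8 were summed and that of French bulldog 6 was left out. The neuron score was the mean z-score of TMM log2 CPM (prior count 2) of 5 genes. The 5 highest were compared with the 5 lowest of 16 tumors by edgeR 4.0.16 in R 4.3.3 (quasi-likelihood F test, TMM, filterByExpr by group, robust, two-sided, no covariate, Benjamini-Hochberg over 16429 genes, threshold 0.05). The 5 score genes were in the fit and the adjustment and out of the calls, which leaves 16424 genes. Log2 fold changes are neuron-rich over neuron-poor, and the SE is the size of the log2 fold change over the square root of F. CPM use TMM-scaled library sizes. The code was tested on simulated data. Alternatives used limma 3.58.1 and DESeq2 1.42.0; figures were drawn with Python 3.11.15, pandas 2.3.3 and matplotlib 3.10.9.

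The tumors and lists were chosen with earlier results of these data known, so no list or score was given a p-value. Genes named were the score genes, the first 3 of each list, the called members with the smallest p (up to 3 in other lists) or the largest change (up to 3 in neuronal lists), and the 10 called genes with a symbol and the smallest p in each direction. SV2A, SNCB and RIMS1 were named besides, after their values were seen, as the vesicle genes that did not pass. Each tumor is 1 resected sample, and p-values set the group difference against the spread between tumors within the groups. The groups are the extremes of a score from the same data. For genes that follow the score, the p-values are therefore not those of groups chosen without it. Intervals of counting error were not used, and the limit of 3 counts covers counting error only. Promoter and protein sequences were not analysed here, and results for some genes are not reported here.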

Additional observations from a re-analysis of the deposited data

Results flagged for a closer look

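In 93 named genes outside the score, each group of 5 was checked for a tumor far from its neighbours on the log2 CPM scale, relative to the range of the group. Of 186 groups, 11 (5.91%) held such a tumor, near the 5% that chance alone gives. French bulldog 11 gave 4 of them, all in the neuron-poor group: it was lowest in GRIA2 with 54.8 CPM (543 counts), in SCN2A with 2.12 CPM (21 counts) and in PCNA with 20.6 CPM (204 counts), and highest in FOS with 712.1 CPM (7051 counts). Boston terrier 7 was lowest among the neuron-poor tumors in INA with 0 CPM. The sum of French bulldogs 2 and 8 was lowest in NLGN3 with 55.0 CPM (1002 counts) and highest in KIF18A with 38.9 CPM (708 counts). In the neuron-rich group, French bulldog 9 was highest in MBP with 4777 CPM (59128 counts) and in NEUROD6 with 25.0 CPM (309 counts), boxer 4 was highest in NTRK2 with 692.0 CPM (7327 counts), and French bulldog 10 was lowest in PDGFRB, a receptor of pericytes, with 36.3 CPM (362 counts). Their causes were not tested.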

How the results depend on the processing

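The same 5 and 5 tumors were chosen with each score gene left out, with a score from the pan-neuronal and vesicle lists, and with either library of French bulldogs 2 and 8 alone. Against 937 genes called higher and 112 lower, a minimum of 10 counts in every tumor gave 485 and 39, since fewer genes were tested. The DESeq2 Wald test gave 1607 and 522, French bulldogs alone 450 and 4, and French bulldog 6 added before ranking, where it replaced French bulldog 5, 535 and 43. Changes under this last setting come with the exchange of French bulldog 5 for 1 library that held at most 3 counts of each score gene. Lower calls were 37 with breed as a covariate and 262 with the score as a continuous covariate in 16 tumors. They were 23 for 8 against 8 and 19 for 3 against 3 tumors. Of these, 33, 53, 7 and 6 in that order were among the 112, and only 2 of the 4 in French bulldogs were. Leaving out 1 tumor gave 686 to 1095 higher and 24 to 249 lower calls. The other alternatives stayed within 1.5 times of both counts, while medians of gene lists moved more, the macrophage median of -0.66 from -3.02 to -0.06. The slope in the 6 tumors between the groups, chosen after seeing the data, gave 0 calls in both directions, and 9 named genes that had been called turned their sign there, as log2 per unit of score: GRIA1 (-0.75), SLC1A2 (-0.32), MCM3 (0.25), H4C8 (1.49), H1-5 (1.72), KIF18A (0.59), HMGB2 (0.95), ODC1 (0.020) and POLR1A (0.15). Except for the slope, no alternative turned the direction of a called gene that the text names. No paired analysis was possible because the groups were set by the score, and a number shared by dogs of different breeds marks no common animal or batch. Boxers and Boston terriers alone were not run, with 2 neuron-rich tumors against 1. Depth limits genes such as NEUROD6, at most 6 counts in a neuron-poor tumor. The causes of the other changes were not tested.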

Other observations

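The library of French bulldog 6, which was not ranked, held 3 counts of SNAP25, 2 of SYT1 and 1 each of RBFOX3, NEFL and SLC17A7. The paper found this sample apart from the others when samples were clustered, saw no clear biological reason and kept it. The depth of this library is not given here, and whether its low counts come from the tissue or from a poor library was not tested. Scaled with the other tumors, the neuron score of this library was -3.98, below that of every ranked tumor. The separate libraries of French bulldogs 2 and 8 had scores of -1.46 and -1.09 when scaled in the same way, and SNAP25 counts of 84 and 140.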
